A study of Homo sapiens with 6 samples.

Results

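The 10 genes described here encode trypsin-like serine proteases of epithelia. They comprise the trypsinogens PRSS1, PRSS2 and PRSS3, the membrane-anchored proteases ST14, TMPRSS2, TMPRSS4, HPN and PRSS8, and the secreted proteases PRSS22 and PRSS23. They were found by gene symbol among 60605 genes of the deposited table, and each symbol matched 1 row. The members were chosen by their TIPE and vector counts in these same libraries, so their values are given as a description and without a test of them.

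RNA was measured in SW480, an established line of human colon adenocarcinoma cells. The vector group (n = 3 libraries) carried an empty lentiviral vector. The TIPE group (n = 3 libraries) carried the same kind of vector with TIPE, another name for TNFAIP8, which encodes a TNF-induced protein of the cytosol. Both groups were kept in puromycin for at least 2 weeks before sequencing, and the genetic background of the line was shared by all 6 libraries. The sources used here do not give the promoter that drives TIPE, the number of clones behind each population or whether libraries came from separate cultures. The p-values therefore measure only how these libraries spread, and that spread may be technical.

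Total counts ranged from 13957349 to 20345330 per library. The overexpressed gene TNFAIP8 (chromosome 5) had 104 to 175 counts in vector and 62902 to 98811 counts in TIPE libraries, so every library matched its label. Of 14203 genes with a mean of at least 0.5 FPKM (counts per kilobase of exon, scaled to the total count of the library), 5902 or 41.6% had an adjusted p under 0.05 in edgeR's quasi-likelihood test. Of 12 colon epithelial markers 7 were tested. The keratins KRT8, KRT18 and KRT19 and the intestinal factor CDX2 rose, and the adhesion proteins EPCAM and CDH1 fell. VIL1 did not pass (log2 fold change -0.10, edgeR adjusted p = 0.185), although every TIPE library lay below every vector library. KRT20, GPA33, LGALS4 and CEACAM5 lay under the expression filter with few counts, and CDX1 was at 0 in every library. In edgeR without the filter, the log2 fold change was -1.68 for GPA33 (adjusted p = 0.0313) and -1.17 for LGALS4 (0.27). GPA33 had 13, 7 and 13 counts in vector and 1, 4 and 5 counts in TIPE libraries. LGALS4 had 7, 7 and 9 counts in vector and 0, 7 and 3 counts in TIPE libraries. Scaled to library totals alone, every TIPE library lay below every vector library for these genes, but the nearest libraries were almost level. For GPA33, vector replicate 2 and TIPE replicate 3 each had 0.12 FPKM. At so few counts nothing is read from this order. Without the filter, edgeR gave log2 fold changes of 1.63 for CEACAM5 (adjusted p = 0.0853) and 0.96 for KRT20 (0.647), with overlapping groups. Of 12 markers of leukocytes, stroma and other cells, PTPRC, CD3E, COL1A2 and COL3A1 were among those at 0, and the summed level of all 12 was 0.96 to 1.29 FPKM in vector and 1.17 to 1.73 FPKM in TIPE libraries. Of these 12, the stromal marker PDGFRB was higher in every TIPE library, with 0.34, 0.17 and 0.21 FPKM in vector and 0.56, 0.54 and 0.51 FPKM in TIPE (log2 fold change 1.26, adjusted p = 3.16e-07 in edgeR without the filter). PECAM1 was also higher in every TIPE library (log2 fold change 0.84, adjusted p = 0.156 in the same fit). CD14, the only one of these 12 over the filter, had a mean of 0.503 FPKM in each group. The part of these genes in the protease values was not tested.

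Trypsin-like proteases cut proteins after lysine or arginine and are made as inactive precursors. Trypsinogens are best known from the acinar cells of the pancreas, which store them until the intestinal protease enterokinase opens them, and the human genome holds several near-identical copies. Matriptase (ST14) and its relatives sit in the membrane of epithelial cells, are held in check by the Kunitz-type inhibitors SPINT1 and SPINT2, and act on growth factor precursors, protease-activated receptors and the epithelial sodium channel.

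The trypsinogen copies are alike enough that the assignment of their reads had to be examined first. The protein-coding sequence was 744 bases long in each of PRSS1, PRSS2 and PRSS3 (transcripts of GENCODE release 29, on GRCh38). PRSS1 and PRSS2 were identical at 92.9% of these bases, with 53 differences. PRSS1 and PRSS3 were identical at 91.5%, with 63 differences, and PRSS2 and PRSS3 at 93.3%, with 50 differences. The longest stretch without a difference between PRSS1 and PRSS2 was 68 bases, printed here because a shorter read inside it would belong to both genes. It crosses the junction of consecutive exons, at chr7:142750701-142751827 in PRSS1 and chr7:142772195-142773319 in PRSS2, on the plus strand.
Shared by PRSS1 and PRSS2: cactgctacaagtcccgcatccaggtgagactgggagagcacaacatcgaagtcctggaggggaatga

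The copies differ more in some other stretches, although PRSS2 and PRSS3 also shared a run of 63 identical bases. The 90 bases of exon 3 with the most differences between PRSS1 and PRSS2 are shown with capitals at bases that are not the same in all 3 copies. They lie at chr7:142751857-142751946 in PRSS1, chr7:142773349-142773438 in PRSS2 and chr9:33797912-33798001 in PRSS3, all on the plus strand of GRCh38. In this stretch PRSS1 and PRSS2 differ at 15 bases, PRSS1 and PRSS3 at 13, and PRSS2 and PRSS3 at 9.
PRSS1: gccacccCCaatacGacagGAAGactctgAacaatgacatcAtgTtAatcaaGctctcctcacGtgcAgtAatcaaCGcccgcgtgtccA
PRSS2: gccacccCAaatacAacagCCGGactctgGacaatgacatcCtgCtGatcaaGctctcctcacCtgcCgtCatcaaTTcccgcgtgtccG
PRSS3: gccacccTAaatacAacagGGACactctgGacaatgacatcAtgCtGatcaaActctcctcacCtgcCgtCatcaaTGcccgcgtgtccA

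Windows of 50, 100 and 150 bases were cut from the protein-coding transcripts of each gene and looked up on both strands of the transcripts of every other GENCODE gene. At 150 bases, the read length that the labels give, all windows of PRSS1, PRSS2 and PRSS3 were found in no other gene. At 100 bases the share was 100% for PRSS1 and PRSS3 and 99.4% for PRSS2, whose shared windows matched the pseudogene PRSS3P1. At 50 bases it was 94.8% for PRSS1, 89.2% for PRSS2 and 95.4% for PRSS3. Reads of the full length and without errors could thus be placed in 1 copy, whereas trimmed reads or reads with mismatches might be split. The sources used here do not say how the authors counted reads with several matches. The trypsinogen pseudogenes took almost no counts. PRSS3P1 had 3 counts in all 6 libraries together, all of them in vector replicates 1 and 3, and PRSS3P3, PRSS3P4 and TRY2P had 0.

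**Figure D1:**
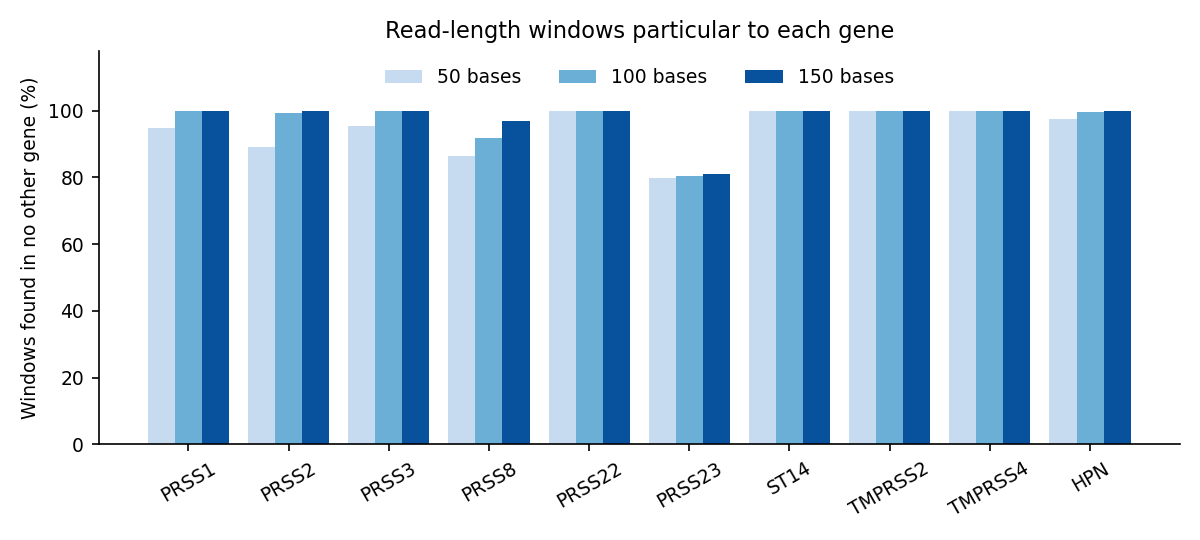
Share (percent, vertical axis) of 50-, 100- and 150-base windows of each gene's protein-coding transcripts that occur in no other GENCODE gene, by gene (horizontal axis). At 150 bases the bars of the 3 trypsinogens reach 100%, whereas PRSS23 stays at 81.2% because it shares sequence with FZD4 on the opposite strand.

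The level of the trypsinogens in these colon cancer cells was high for PRSS2 and lower for its copies. PRSS2 (ENSG00000275896, chr7:142760398-142774564, plus strand), anionic trypsinogen, was the most abundant of the 10 genes in both groups. PRSS3 (ENSG00000010438, chr9:33750679-33799231, plus strand), mesotrypsinogen, came next, and PRSS1 (ENSG00000204983, chr7:142749468-142753076, plus strand), cationic trypsinogen, came after ST14.

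PRSS1 had 21.1, 20.2 and 25.8 FPKM in vector replicates 1, 2 and 3 against 6.70, 9.17 and 7.60 FPKM in TIPE replicates 1, 2 and 3. Every TIPE library lay far below the lowest vector library. These levels rest on 605, 738 and 700 counts in vector and on 206, 350 and 199 counts in TIPE libraries. The mean was 22.3 ± 3.01 FPKM in vector and 7.82 ± 1.25 FPKM in TIPE (SD, n = 3 each). The log2 fold change of TIPE over vector was -1.43 (standard error 0.11), a level 2.69-fold lower in TIPE. Fold changes of the edgeR fit are scaled by TMM factors, whereas FPKM are scaled to library totals alone. Ratios of mean FPKM therefore differ somewhat from the fold changes given here and below. Among the 14203 genes tested, 60 had a lower log2 fold change, and 19 of these passed the threshold.

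PRSS2 had 214.6, 214.1 and 248.5 FPKM in vector replicates 1, 2 and 3 against 168.5, 173.0 and 171.2 FPKM in TIPE replicates 1, 2 and 3. The groups did not overlap, and the TIPE libraries lay close together. The mean was 226 ± 19.7 FPKM in vector and 171 ± 2.29 FPKM in TIPE (SD, n = 3 each), with a log2 fold change of -0.33 (standard error 0.06). This 1.26-fold difference was about as large as the typical gene past the threshold, for which the median absolute log2 fold change was 0.35.

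PRSS3 had 53.3, 54.8 and 60.5 FPKM in vector replicates 1, 2 and 3 against 61.2, 64.6 and 57.0 FPKM in TIPE replicates 1, 2 and 3. The groups overlapped, because TIPE replicate 3 lay below vector replicate 3. The mean was 56.2 ± 3.77 FPKM in vector and 60.9 ± 3.84 FPKM in TIPE (SD, n = 3 each), with a log2 fold change of 0.19 (standard error 0.07). The log2 fold change of PRSS3 was 0.00 once a trend with GC content and length was removed, and 0.12 with library totals in place of TMM factors. Vector replicate 3 held the highest vector value of each of the 3 copies.

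**Figure D2:**
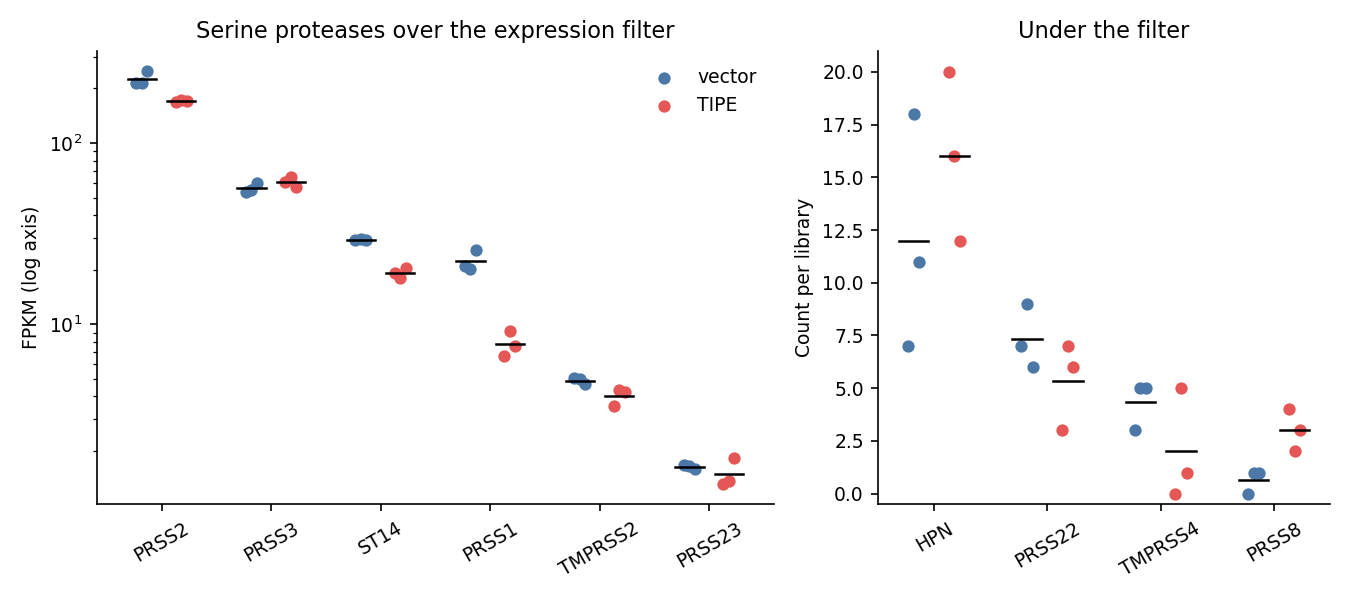
Left, FPKM (log axis) of the 6 genes over the expression filter in each library. Right, counts per library of the 4 genes under it. Points are libraries of the vector and TIPE groups and horizontal lines are group means. The groups stand apart for PRSS1, PRSS2, ST14 and TMPRSS2, with TIPE lower, and overlap for PRSS3 and PRSS23.

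PRSS1, PRSS2 and PRSS3 together took 406 ± 35.7 CPM (counts scaled to the library total) in vector and 317 ± 9.08 in TIPE libraries (SD, n = 3 each). These sums depend on the scaling between libraries. The copies' shares of these counts were also compared within each library, where depth and scaling cancel. PRSS1 made up 10.3%, 9.82% and 10.8% of these counts in vector replicates 1, 2 and 3, against 4.03%, 5.26% and 4.58% in TIPE replicates 1, 2 and 3. The share of PRSS1 was therefore lower in every TIPE library than in every vector library. The 95% Wilson intervals of these shares ran from 9.17% to 11.6% over the vector and from 3.52% to 5.82% over the TIPE libraries, and they cover counting error only.

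The composition of the trypsinogen counts differed most in the minor copies. PRSS2 held 70.0% ± 0.0692 of the counts in vector and 68.0% ± 1.37 in TIPE (SD, n = 3 each). PRSS3 held 19.7% ± 0.498 in vector and 27.4% ± 1.13 in TIPE. For each 100 counts of PRSS2 there were 14.6, 14.1 and 15.5 counts of PRSS1 in vector and 5.92, 7.90 and 6.61 in TIPE libraries. The ratio of PRSS3 to PRSS2 went the other way. It was 28.1, 28.97 and 27.6 counts of PRSS3 per 100 of PRSS2 in vector and 41.1, 42.3 and 37.7 in TIPE libraries, with no overlap between the groups. In these libraries the levels of the 3 copies thus did not differ in equal proportion between the groups. The ratios use the counts by which the genes were chosen and are a description. On single levels the groups stood apart for 50.9% of all genes tested, and no such share was computed for ratios.

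**Figure D3:**
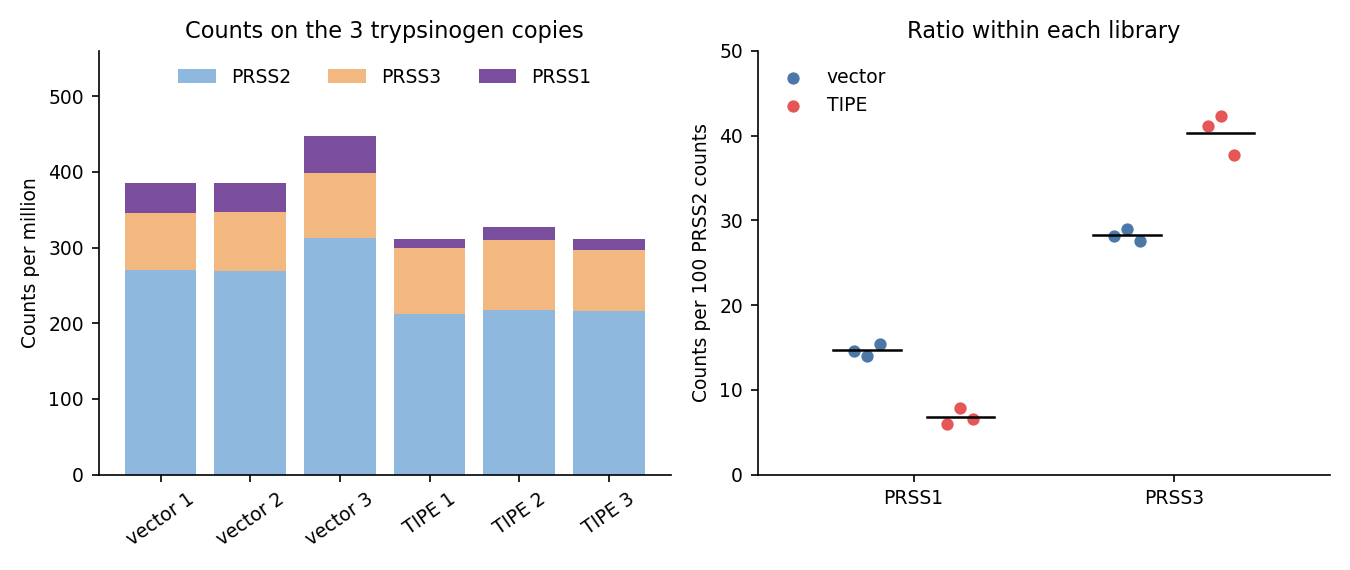
Left, CPM of PRSS1, PRSS2 and PRSS3, stacked, for each library. Right, counts of PRSS1 and of PRSS3 per 100 counts of PRSS2, with points for libraries and lines for group means. Vector libraries hold 14.1 to 15.5 counts of PRSS1 per 100 of PRSS2, and TIPE libraries 5.92 to 7.90.

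FPKM divides by the exonic length that the table gives, 1876 bases for PRSS1, 1259 for PRSS2 and 1425 for PRSS3, which are longer than the coding sequences. Per kilobase of coding sequence, PRSS2 had 382 ± 33.4 CPM in vector and 289 ± 3.86 in TIPE libraries. PRSS3 had 108 ± 7.22 and 117 ± 7.36, and PRSS1 had 56.3 ± 7.59 and 19.7 ± 3.15 (SD, n = 3 each). The order of the copies was the same on both scales.

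The promoters of the copies are nearly as alike as their coding sequences, and are shown because PRSS1, PRSS2 and PRSS3 had unlike fold changes. Of the 10 genes, PRSS1, PRSS2, PRSS3, PRSS23 and HPN matched an entry of the RefSeq promoter table (GRCh38.p14), which spans 250 bases before to 50 bases after the start. The PRSS1 and PRSS2 promoters were identical at 91.5% of 294 aligned bases, those of PRSS1 and PRSS3 at 89.6% of 299, and those of PRSS2 and PRSS3 at 89.8% of 293. They lie at chr7:142749222-142749521, chr7:142770720-142771019 and chr9:33795311-33795610 on the plus strand. Capitals mark TATAAA, the TATA box, and CACCTG, an E-box, on either strand, where CACCTG reads CAGGTG on the minus strand.
PRSS1: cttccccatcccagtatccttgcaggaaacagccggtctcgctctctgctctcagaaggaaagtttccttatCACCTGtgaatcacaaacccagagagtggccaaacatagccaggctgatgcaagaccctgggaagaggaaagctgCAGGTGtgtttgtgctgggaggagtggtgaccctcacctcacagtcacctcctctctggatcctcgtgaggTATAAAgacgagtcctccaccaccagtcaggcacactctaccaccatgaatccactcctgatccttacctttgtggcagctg
PRSS2: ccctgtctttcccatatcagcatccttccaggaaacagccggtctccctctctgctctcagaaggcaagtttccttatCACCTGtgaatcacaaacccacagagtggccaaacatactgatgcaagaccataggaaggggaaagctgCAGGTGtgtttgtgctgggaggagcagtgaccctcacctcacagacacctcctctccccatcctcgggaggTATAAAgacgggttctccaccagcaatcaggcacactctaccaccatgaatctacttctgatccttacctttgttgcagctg
PRSS3: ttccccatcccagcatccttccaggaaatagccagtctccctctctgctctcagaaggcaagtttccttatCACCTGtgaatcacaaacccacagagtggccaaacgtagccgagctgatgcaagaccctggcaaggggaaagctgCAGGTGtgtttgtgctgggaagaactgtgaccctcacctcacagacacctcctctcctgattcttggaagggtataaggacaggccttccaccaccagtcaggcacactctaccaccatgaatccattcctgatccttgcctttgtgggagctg

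TATAAA began at position -32 from the start in both PRSS1 and PRSS2, and these exact letters are not in the PRSS3 window. At the counterpart of that site the PRSS3 window reads tataag. The search for exact letters therefore does not show that PRSS3 lacks a TATA box. CACCTG matched at 2 positions in each copy, at -178 and -103 in PRSS1, at -172 and -103 in PRSS2 and at -179 and -104 in PRSS3. The motifs did not overlap each other. Of 35116 RefSeq promoters of this length, 11.5% held TATAAA and 20.6% held CACCTG on either strand. The deposited spans of PRSS2 and PRSS3 begin upstream of these starts. The deposited PRSS2 span also overlaps the pseudogene PRSS3P1 on the same strand, and its start lies 10.93 kb from that of PRSS1, whereas the printed promoters lie 21.5 kb apart.

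Among the membrane-anchored proteases, matriptase was the most abundant. ST14 (ENSG00000149418, chr11:130159782-130210362, plus strand) had 29.3, 29.4 and 29.2 FPKM in vector replicates 1, 2 and 3 against 19.2, 18.1 and 20.3 FPKM in TIPE replicates 1, 2 and 3. Each group was tight and the groups lay far apart. The mean was 29.3 ± 0.121 FPKM in vector and 19.2 ± 1.11 FPKM in TIPE (SD, n = 3 each), with a log2 fold change of -0.54 (standard error 0.06), or a level 1.45-fold lower in TIPE. The log2 fold change was -0.75 with the trend in GC content and length removed.

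TMPRSS2 (ENSG00000184012, chr21:41464300-41531116, minus strand), a membrane protease known for priming viral spike proteins, had 5.02, 4.96 and 4.69 FPKM in vector replicates 1, 2 and 3 against 3.55, 4.31 and 4.25 FPKM in TIPE replicates 1, 2 and 3. The groups did not overlap, with TIPE replicate 1 lowest. The log2 fold change was -0.20 (standard error 0.08), and was -0.12 without TIPE replicate 1. TMPRSS2 overlaps the interferon-induced gene MX1 on the opposite strand, which had 93, 151 and 105 counts in vector and 111, 149 and 90 counts in TIPE libraries. No window of the protein-coding transcripts of TMPRSS2, at 50, 100 or 150 bases, occurred in a transcript of another gene.

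PRSS23 (ENSG00000150687, chr11:86791059-86952910, plus strand), a secreted serine protease, was the lowest gene over the filter. It had 1.68, 1.65 and 1.58 FPKM in vector replicates 1, 2 and 3 against 1.32, 1.36 and 1.82 FPKM in TIPE replicates 1, 2 and 3. The groups overlapped because TIPE replicate 3 was the highest library of all. The log2 fold change was -0.07 (standard error 0.10), and its sign turned to 0.13 with the trend in GC content and length removed and to 0.01 without TIPE replicate 1. PRSS23 shares transcript sequence with the WNT receptor gene FZD4 on the opposite strand, and without stranded counting their reads cannot be told apart there.

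The other 4 genes lay under the expression filter and were near the limit of counting. Where no read was counted, up to 3 counts (0.147 to 0.215 CPM) remain possible. HPN (hepsin, a membrane protease best known from liver and prostate, chromosome 19) had 7, 18 and 11 counts in vector and 20, 16 and 12 counts in TIPE libraries. Summed over each group and divided by the total counts, the ratio of TIPE to vector was 1.30 (95% exact interval 0.824 to 2.05), and the groups overlapped.

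PRSS22 (tryptase epsilon, chromosome 16) had 7, 9 and 6 counts in vector and 3, 7 and 6 counts in TIPE libraries, a ratio of 0.707 (95% exact interval 0.347 to 1.41). TMPRSS4, a membrane protease of epithelial tumours on chromosome 11, had 3, 5 and 5 counts in vector and 0, 5 and 1 counts in TIPE libraries, a ratio of 0.449 (0.140 to 1.26). PRSS8 (prostasin, the GPI-anchored partner of matriptase, chromosome 16) had 0, 1 and 1 counts in vector and 4, 2 and 3 counts in TIPE libraries, a ratio of 4.37 (0.905 to 41.6). Each of these intervals spans 1 and covers counting error only, not the spread between libraries. At so few counts the ratios are a description and not a test of these genes. The PRSS8 groups did not overlap, as was the case for 10.3% of the 15633 genes under the filter.

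Of the 10 genes, 6 passed the expression filter, and 4 of these passed the edgeR threshold, with PRSS1, PRSS2 and ST14 lower and PRSS3 higher in TIPE. Of all genes tested, 41.6% passed, 20.7% lower and 20.9% higher. In the fit without the filter, 20.1% of all genes fitted passed, but only 2.71% of the genes under the filter. None of the other 4 genes passed in that fit. Since the genes were chosen with this contrast in view, nothing is read from these counts. TMPRSS2 and PRSS23 did not pass. PRSS3 no longer passed without vector replicate 1, vector replicate 2 or TIPE replicate 2, with the trend in GC content and length removed, in limma or with library totals alone. TMPRSS2 did pass without TIPE replicate 2 or 3 and in those same fits with the trend removed, in limma and with totals alone. These calls describe how the fits differ and are not a test of the members, which were chosen by the same counts. The groups did not overlap, with TIPE lower, for PRSS1, PRSS2, ST14 and TMPRSS2, against 31.8% of all genes tested, and 50.9% in either direction. Overlap was judged on counts scaled to library totals, without TMM factors. On that scale fewer genes, 19.1%, stood apart with TIPE higher. In bulk RNA, fewer cells of a kind and less RNA in each cell cannot be told apart.

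The order of the levels was the same in both groups for the first 7 genes. By FPKM it was PRSS2, PRSS3, ST14, PRSS1, TMPRSS2, PRSS23 and HPN, and the ranges of neighbours in this order did not overlap within either group. HPN and PRSS22 overlapped in vector libraries and stood apart in TIPE libraries. TMPRSS4 and PRSS8 were at or under 0.08 FPKM in every library.

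**Figure D4:**
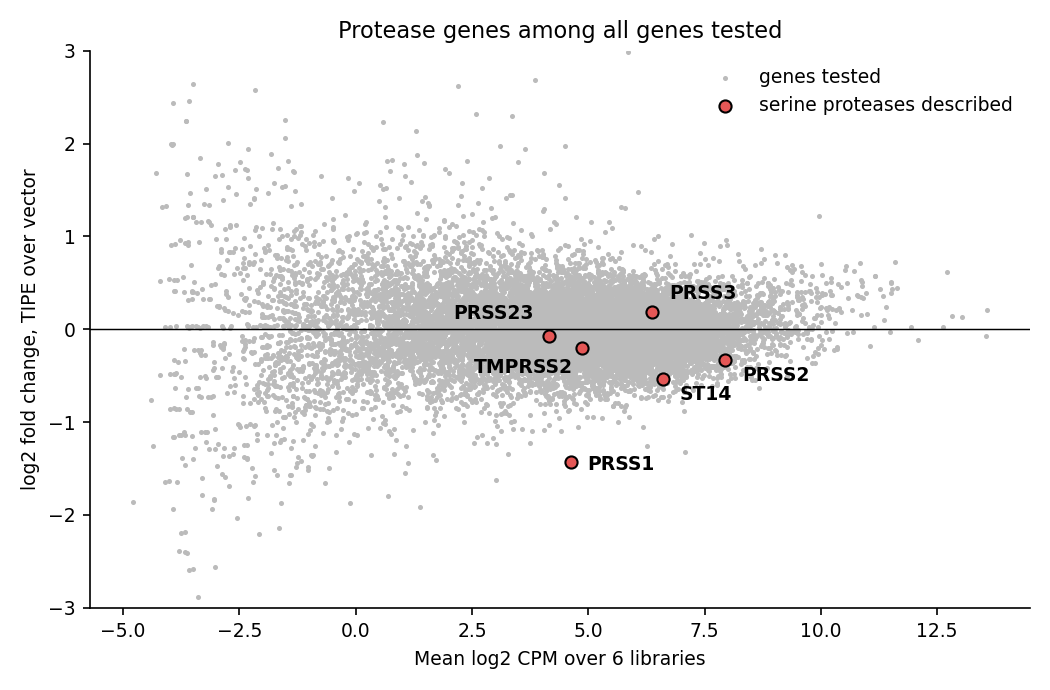
Log2 fold change of TIPE over vector (vertical axis) against mean log2 CPM over 6 libraries (horizontal axis) for the 14203 genes tested, in grey, with the 6 serine protease genes over the filter as labelled points. PRSS1 lies low in the cloud at -1.43, the other 5 lie between -0.54 and 0.19, and 19 genes lie outside the axis.

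Of 23 listed inhibitors of trypsin-like proteases 7 were tested, of which 3 rose, 0 fell and 4 did not pass the threshold. This share is near the 41.6% of all genes tested that passed, 20.9% higher and 20.7% lower, and the inhibitors had a median log2 fold change of 0.13 against -0.000470 over all genes tested. SERPINE2, protease nexin 1, rose in TIPE, with 5.17 ± 0.287 FPKM in vector and 9.28 ± 0.611 in TIPE (SD, n = 3 each) and a log2 fold change of 0.91 (standard error 0.06, edgeR adjusted p = 1.82e-09). SERPINA1, alpha-1-antitrypsin, rose from 22.0 ± 2.39 to 26.2 ± 1.27 FPKM (log2 fold change 0.33, edgeR adjusted p = 0.00102). SERPINB6 rose with a log2 fold change of 0.23 (edgeR adjusted p = 0.00787), although its groups overlapped. Its adjusted p was 0.0652 without vector replicate 2, 0.0705 with library totals alone and 0.145 in limma, and its log2 fold change was 0.44 with the trend in GC content and length removed.

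The inhibitors that bind matriptase itself did not pass. SPINT1 had 21.9 ± 1.35 FPKM in vector and 22.7 ± 0.876 in TIPE (log2 fold change 0.13, standard error 0.06, edgeR adjusted p = 0.125). SPINT2 had 35.6 ± 1.17 FPKM in vector and 33.1 ± 2.14 in TIPE (log2 fold change -0.04, standard error 0.06, edgeR adjusted p = 0.659). SPINK1, the trypsin inhibitor of the pancreas, was near 0, at a mean of 0.217 FPKM in vector and 0.250 in TIPE.

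A2M and TFPI, named after their values were seen, were the 2 further inhibitors past the threshold when the filter was dropped. A2M (alpha-2-macroglobulin, a broad protease trap, chromosome 12) had 4, 6 and 2 counts in vector and 57, 86 and 53 counts in TIPE libraries. The summed counts stood in a ratio of 15.9 (95% exact interval 8.88 to 31.2), and edgeR without the filter gave an adjusted p of 1.57e-30. TFPI (tissue factor pathway inhibitor, chromosome 2) had 0, 1 and 0 counts in vector and 7, 6 and 6 in TIPE libraries, a ratio of 18.5 (2.94 to 767, adjusted p = 0.00474 in the same fit). Without the filter, 2.71% of the genes under it passed the threshold.

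Receptors and substrates of these proteases showed small differences. Of 18 listed genes 10 were tested, of which 1 rose, 3 fell and 6 did not pass, a share near the 41.6% of all genes tested, with a median log2 fold change of -0.15 against -0.000470 over all genes tested. SCNN1A, the alpha subunit of the epithelial sodium channel, fell from 8.26 ± 0.295 to 6.24 ± 0.201 FPKM (log2 fold change -0.33, edgeR adjusted p = 3.97e-04). The beta and gamma subunit genes SCNN1B and SCNN1G were at 0 in every library. The PAR2 receptor gene F2RL1, a known target of trypsin and matriptase, had 14.9 ± 1.32 FPKM in vector and 14.4 ± 1.66 in TIPE (log2 fold change 0.01, standard error 0.08, edgeR adjusted p = 0.942).

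Calls on the remaining substrates were lost under several alternatives. MET, the receptor of hepatocyte growth factor, fell from 46.9 ± 1.92 to 39.4 ± 2.40 FPKM (edgeR adjusted p = 0.0168), with an adjusted p of 0.0688 without vector replicate 1 and of 0.0754 without vector replicate 2. With the trend in GC content and length removed, the log2 fold change of MET went from -0.18 to -0.03 (adjusted p = 0.704). EPCAM fell from 105 ± 2.81 to 87.0 ± 12.8 FPKM (edgeR adjusted p = 0.0307) with overlapping groups, and leaving out any library but TIPE replicate 3 gave an adjusted p of 0.0582 to 0.173, with 0.0570 in limma. MST1R, the receptor of macrophage-stimulating protein, rose with a log2 fold change of 0.16 (edgeR adjusted p = 0.0403), but the call was lost in 11 of 14 alternatives. Its adjusted p was 0.958 with the trend in GC content and length removed, 0.265 in limma, 0.245 with library totals alone, 0.0673 in DESeq2 and 0.0589 to 0.174 without any 1 library but TIPE replicate 3. With 1 library left out, the count of receptors and substrates past the threshold ran from 1, without vector replicate 1 or 2, to 6, without TIPE replicate 3.

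Other proteases of the same fold were mostly under the expression filter. Of 17 other membrane-anchored proteases TMPRSS3 alone was tested, at 6.30 ± 0.773 FPKM in vector and 6.23 ± 0.136 in TIPE (log2 fold change 0.06, edgeR adjusted p = 0.608). TMPRSS15, enterokinase, had 1, 0 and 1 counts in vector and 2, 5 and 0 counts in TIPE libraries. Of 36 other trypsin-fold proteases 4 were tested, and KLK1, tissue kallikrein, fell from 3.20 ± 0.569 to 2.25 ± 0.444 FPKM (log2 fold change -0.42, edgeR adjusted p = 0.0429). The KLK1 call was lost without vector replicate 3 (adjusted p = 0.233), TIPE replicate 2 (0.111) or TIPE replicate 3 (0.107), and also in DESeq2 (0.0728), in limma (0.0557) and with the replicate block (0.0526). KLK6, the most abundant kallikrein tested, had 26.9 ± 0.0757 FPKM in vector and 25.3 ± 1.01 in TIPE (log2 fold change -0.02, edgeR adjusted p = 0.848).

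Other genes typical of pancreatic acinar cells were mostly at or near 0. Of 27 acinar genes, 14 were at 0 in every library, among them PNLIP, CPB1, CELA3A, AMY2A and the acinar factor PTF1A, and 2 were tested, of which 1 passed the threshold, against 41.6% of all genes tested. BHLHA15 (MIST1), a factor of secretory cells, fell from 35.2 ± 1.22 to 29.4 ± 1.80 FPKM (log2 fold change -0.19, edgeR adjusted p = 0.0200), with an adjusted p of 0.0857 without vector replicate 3 and a log2 fold change of -0.47 with the trend in GC content and length removed. PNLIPRP2 had 1.06 ± 0.204 FPKM in vector and 1.06 ± 0.250 in TIPE. The summed level of the 27 genes was 35.7 to 38.3 FPKM in vector and 29.2 to 32.1 FPKM in TIPE libraries, most of it from BHLHA15.

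PRSS1 and PRSS2 lie inside the T cell receptor beta locus on chromosome 7, and their neighbours were read from the same table. Within 500 kb of PRSS1 lay 104 genes, of which 74 were at 0 in every library and 15 were tested. The calcium channel gene TRPV6 fell, with 3.46, 3.68 and 3.16 FPKM in vector and 1.76, 1.63 and 1.31 FPKM in TIPE libraries (log2 fold change -1.05, standard error 0.09, edgeR adjusted p = 3.31e-08). EPHB6, a kinase-dead ephrin receptor, rose, with 11.2, 11.8 and 11.8 FPKM in vector and 16.7, 16.1 and 14.7 FPKM in TIPE libraries (log2 fold change 0.52, standard error 0.06, edgeR adjusted p = 1.99e-06). These neighbours of PRSS1, 122 and 106 kb away by their starts, therefore moved in opposite directions.

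GSTK1, a glutathione transferase 495 kb away, rose with a log2 fold change of 0.15 (edgeR adjusted p = 0.0390). Its call was lost in 9 of 14 alternatives, among them DESeq2 (0.0503), limma (0.215) and library totals alone (0.257), and its adjusted p was 0.0741 to 0.246 without TIPE replicate 1 or 2 or vector replicate 1 or 2. Of 78 T cell receptor beta segments 12 were tested and 0 passed the threshold in edgeR or DESeq2, with 3 at an unadjusted p under 0.05 in edgeR and 1 in DESeq2, against 41.6% of all genes tested past the edgeR threshold. With the trend in GC content and length removed 2 passed (TRBC2 and TRBJ2-2P), in limma 3 (TRBC2, TRBJ2-2P and TRBJ2-7) and with library totals alone 1 (TRBC2). The constant segment TRBC2, 51.6 kb from PRSS1, was the most abundant gene of the window, at 310 ± 18.1 FPKM in vector and 268 ± 15.5 in TIPE (log2 fold change -0.14, edgeR adjusted p = 0.0671). TRBC2 passed the threshold without TIPE replicate 3 or vector replicate 1, and TRBV30 without TIPE replicate 3. The joining segments had log2 fold changes of 0.07 for TRBJ2-1, -0.04 for TRBJ2-2 and 0.60 for TRBJ2-7. None of these passed the edgeR threshold. Of the 12 segments tested, only TRBC2, TRBV30 and TRBJ2-1 had a standard error under 0.3 (0.06, 0.18 and 0.28). The others were measured loosely, so their not passing does not show that they were unchanged. TRBJ2-2P, named after its values were seen, had a log2 fold change of -1.09 (standard error 0.50, edgeR adjusted p = 0.0876), with the TIPE libraries below all vector libraries.

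**Figure D5:**
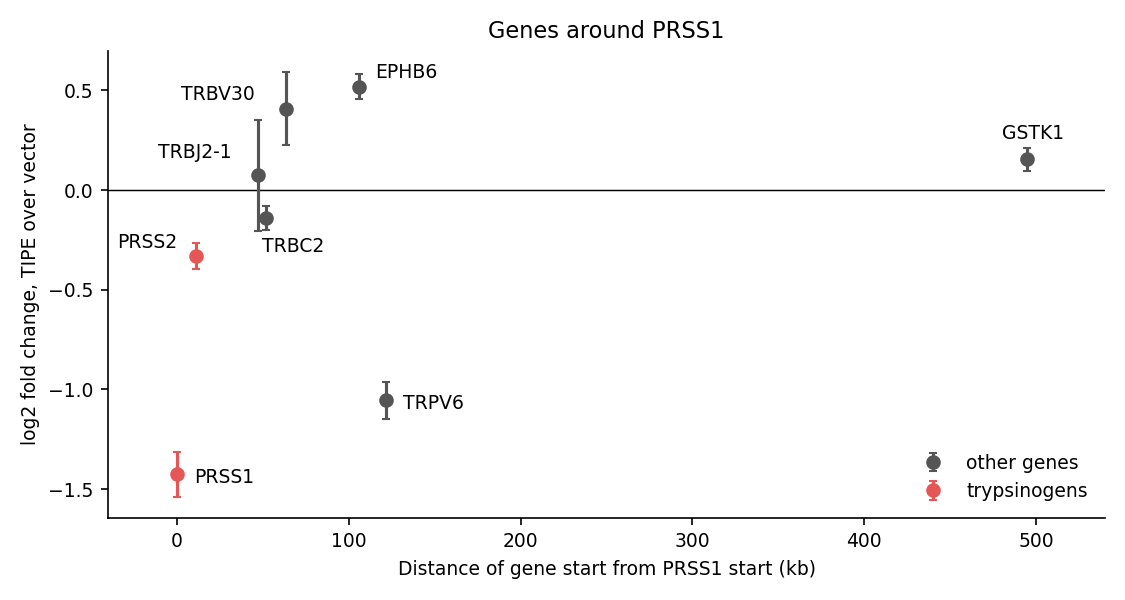
Log2 fold change of TIPE over vector (vertical axis, bars are standard errors) against the distance of each gene's start from that of PRSS1 in kb (horizontal axis), for genes with a standard error under 0.3. PRSS1 lies at -1.43 and PRSS2 at -0.33, with deposited starts 10.93 kb apart, TRPV6 lies at -1.05 and EPHB6 at 0.52.

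The genes whose mean-centred log2 CPM was closest to that of PRSS1 over the 6 libraries, by Euclidean distance, were ENSG00000272072 (0.44), CDH1 (0.45), ENSG00000239407 (0.54), ALCAM (0.55) and SLC16A14 (0.56). CDH1, E-cadherin, had 35.9 ± 1.32 FPKM in vector and 13.7 ± 0.878 in TIPE (log2 fold change -1.32). ALCAM, a cell adhesion molecule, had a log2 fold change of -1.23, and SLC16A14, a member of the monocarboxylate transporter family, one of -1.10. These genes were picked for being low in the same libraries as PRSS1, so their values are a description.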

How the data were processed

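The authors deposited 1 table with a count and an FPKM value per gene and library, per the file headers. The deposited counts were whole numbers and taken as raw, and every deposited FPKM value equalled the count per exonic kilobase, scaled to the library's total count, within 0.005. Alignment used HISAT2 2.0.1 and hg38, per the submitters' processing notes. The sources used here do not name the counting tool, the annotation release or the use of strand. All columns of values were mapped to a sample by their names.

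A mean FPKM of 0.5 or more was required (14203 genes), TMM factors were 0.962 to 1.03, and edgeR 4.0.16 (R 4.3.3) fitted the group alone by quasi-likelihood over all of them. Two-sided p-values received Benjamini-Hochberg adjustment over all genes fitted, with a threshold of 0.05. Genes under the filter were taken from the same fit without it (29836 genes, 20.1% past the threshold). limma 3.58.1 on log2(FPKM + 1) and DESeq2 1.42.0 were alternatives. Intervals cover counting error only, at a confidence level of 95%.

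On simulated data, the edgeR fit was tested for 14203 genes, 200 of them changed. It recovered 40% of genes changed by a fold of 1.25, 74% at 1.5, 92% at 2 and 96% at 4. Unchanged genes made up 5.03% of its calls. Far more genes, 41.6%, passed in the real data, so these rates may not carry over to them. Libraries of a group differed by a chi-square per gene of 2.32 to 8.28, against 23.9 to 43.4 between groups.

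The 10 genes and the 7 lists were chosen with earlier results of these data known. Named were the 10 genes, the trypsinogen pseudogenes, TNFAIP8, up to 4 genes past the threshold with the smallest adjusted p from each list, the 6 most abundant genes within 500 kb of PRSS1 and the 5 nearest to its pattern. Further genes are named for their role in the pathway, after their values were seen. Transcripts were taken from GENCODE release 29 (58337 gene identifiers matched).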

Additional observations from a re-analysis of the deposited data

How the results depend on the processing

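The design was refitted under 14 alternatives, and no log2 fold change of a tested result past the threshold turned its sign. Genes past the threshold numbered 5902, and 4492 to 6337 with 1 library left out. Limma gave 1912 higher and 3242 lower, and library totals alone 2137 and 3880, against 2967 and 2935. Library totals alone moved the median over all genes to -0.07. PRSS1 stayed between -1.58 and -1.31, PRSS2 between -0.47 and -0.25, ST14 between -0.75 and -0.51 and PRSS3 between 0.00 and 0.25. Samples with the same replicate number did not deviate together (correlations of 0.00252, -0.0297 and -0.0303), so the numbers were not taken as pairs. The replicate block gave 5601 genes past the threshold and 0 of the other trypsin-fold proteases. These numbered 1 otherwise, 0 in DESeq2 and in limma, 2 with the GC and length trend removed, and 0 to 1 with a library left out. Genes within 500 kb numbered 3, then 5 with that trend removed and in limma, and 2 to 5 with a library left out. Inhibitors numbered 3 and, without a filter, 5. Receptors and substrates numbered 4, and 1 to 6 with a library left out. Acinar genes numbered 1, and 0 to 1, with 0 without vector replicate 3. The causes were not tested. SERPINE2, SERPINA1, SCNN1A, TRPV6 and EPHB6 passed in all 14. Depth limits PRSS8, PRSS22, TMPRSS4 and HPN.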
